A study of Mus musculus with 12 samples.

Results

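The data cover 8 neighbouring genes of mouse chromosome 11 that surround Tbx2 and Brip1, out of 55416 genes in the count files. In genomic order they are Bcas3, 2610027K06Rik, Tbx2, Gm11444, Tbx4, Brip1, Brip1os and Ints2. Each was matched by its GENCODE name to 1 Ensembl ID. The 8 genes were chosen by their position and from their already measured levels in inner hair cells (IHCs) and outer hair cells (OHCs), so the difference between the cell types is given for them as a description, with no p-value.

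Hair cells are the sensory cells of the organ of Corti. IHCs pass sound information on to the auditory nerve, whereas OHCs amplify vibrations of the cochlear partition. Tbx2 encodes a T-box transcription factor that directs hair cells to the IHC fate and keeps them there. Tbx2 and Tbx4 are neighbours that arose from an ancient duplication, and Brip1 encodes a DNA helicase of the Fanconi anaemia repair pathway. Neighbouring genes can share regulatory elements, and genes that start close together on opposite strands often share a promoter region.

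Bulk RNA-seq was available for 6 libraries of pooled IHCs and 6 of pooled OHCs from mouse cochleae at P0, the day of birth, and the genotype of all samples was labelled WT. Cells were sorted from mice carrying Atoh1-GFP, which marks hair cells, together with Insm1-GFP-Cre and the Cre reporter R26-TdTomato. IHCs were taken as cells with GFP alone and OHCs as cells with GFP and tdTomato, since Insm1 is active in OHCs. The IHC gate therefore took any GFP-positive cell in which Cre had not switched on the reporter, and the number of mice in each RNA pool is not given in the sources used here. The labels number the libraries from 1 to 6 in each cell type.

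Counts on genes ranged from 31490204 to 44017309 per IHC library and from 29564827 to 39121988 per OHC library. IHC replicate 1 stood apart, with 56.9% of its counts on ribosomal RNA (21.5% to 37.0% in the other IHC libraries and 23.4% to 36.4% in the OHC libraries) and an effective library size of 15289551, against 29975818 to 46384061 in the other 11 libraries. All 3 IHC markers (Fgf8, Otof, Slc17a8) were higher in IHCs and 3 of 4 OHC markers were higher in OHCs. The summed level of 9 markers of the greater epithelial ridge, the epithelium beside the IHCs, was 981 to 2054 CPM (counts scaled to the effective library size) in IHC libraries and 208 to 782 CPM in the OHC ones, without overlap, and 2 of the 7 tested markers were past the threshold, both higher in IHCs. Tecta alone averaged 772 CPM in IHCs against 220 CPM in OHCs. Otoa (6.38 against 9.70 CPM) and Epyc (0.0327 against 2.94 CPM) averaged higher in OHCs, neither past the threshold. The other ridge markers averaged higher in IHCs. The 8 supporting cell markers summed to 284 to 646 CPM in IHC libraries and 158 to 299 CPM in OHC libraries. Of the 8, 2 were past the threshold, Gjb2 and Sox2, both higher in IHCs. The sum did not hold for every marker, since Gjb2 alone averaged 216 CPM in IHCs against 30.3 CPM in OHCs. Fgfr3 (16.8 against 73.1 CPM), Hes5 (8.08 against 20.2 CPM) and Hey1 (39.6 against 56.0 CPM) averaged higher in OHCs, with none of them past the threshold. The 7 mesenchyme markers summed to 42.3 to 59.3 CPM in IHCs and 4.85 to 27.4 CPM in OHCs, without overlap, and none of the 6 tested was past the threshold. Endothelial markers were near 0 in IHC libraries (median 0.573 CPM) and higher in OHC libraries (median 46.3 CPM), with all 4 past the threshold. These calls came from the test across all genes described with the members below.

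The 8 genes lie on GRCm39 chromosome 11 between positions 85243602 and 86195269, a stretch of 952 kb. Bcas3 (85243602 to 85716884, plus strand) ends just before Tbx2 (85723377 to 85734115, plus strand). The long noncoding RNA (lncRNA) gene 2610027K06Rik (85682481 to 85723351, minus strand) is divergent to Tbx2, with 25 bases between the genes, and runs back across the end of Bcas3. The lncRNA gene Gm11444 (85737331 to 85741202, minus strand) lies 3.21 kb beyond the end of Tbx2. Tbx4 (85776887 to 85806923, plus strand) follows, and Brip1 (85948957 to 86092592, minus strand) points back towards Tbx2.

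The spans of Tbx2 and Brip1 are 215 kb apart and their starts 369 kb apart. Brip1os (86092109 to 86195269, plus strand) is an lncRNA gene that starts within the first 484 bases of Brip1 and runs away from it. Ints2 (86101507 to 86148416, minus strand) lies wholly inside the span of Brip1os. The RNA was converted to double-stranded cDNA and amplified, which does not keep the strand, and the strand setting of the counting is not given in the sources used here. Reads in shared exons of opposite genes can therefore not be told apart. These shared bases make up 2.86% of the exonic bases of Brip1, 12.4% of those of Brip1os with Ints2 and 9.27% with Med13, and 5.17% of those of 2610027K06Rik with Bcas3.

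**Figure D1:**
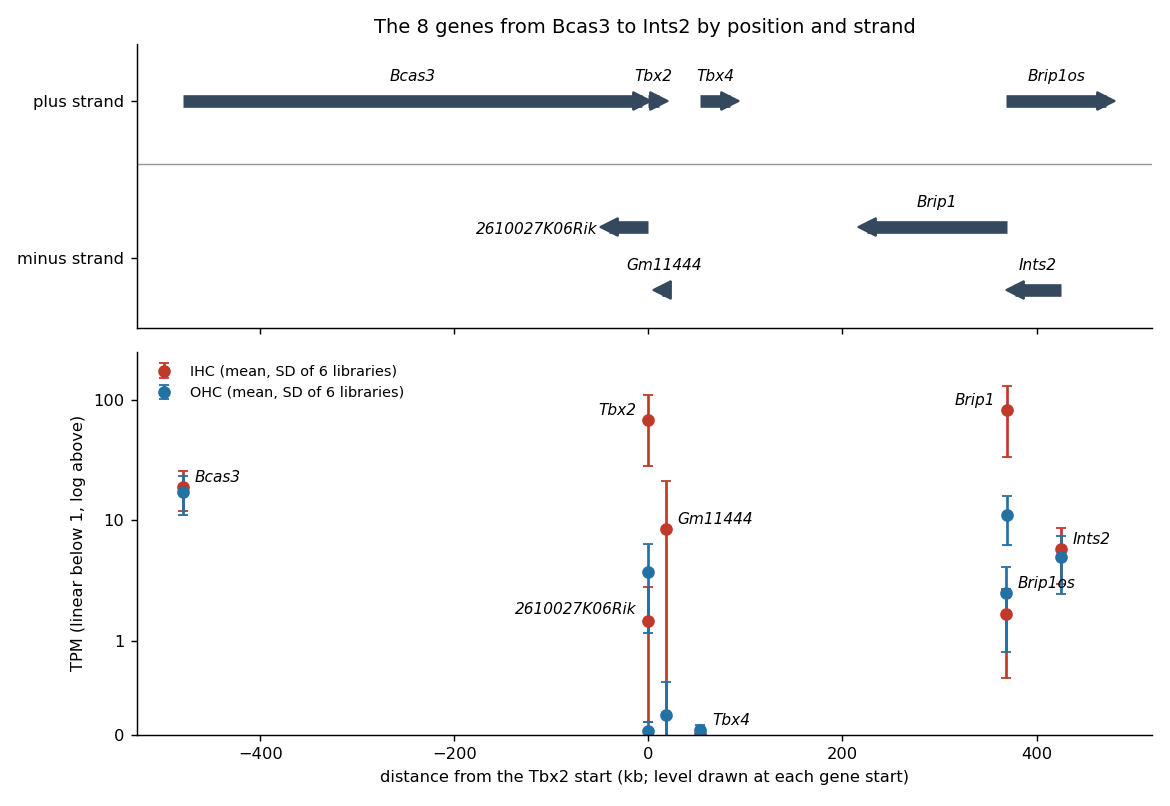
Position and level of the 8 genes. The upper panel shows each gene from start to end in kb from the Tbx2 start, with the plus strand above and the minus strand below (arrowheads mark the direction and are not to scale). The lower panel shows the mean TPM ± SD of 6 IHC and 6 OHC libraries at each gene's start, on an axis that is linear below 1 and logarithmic above. Tbx2 and Brip1 stand at 68.4 and 81.5 TPM in IHCs, with Tbx4 near 0 between them.

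Sequences just upstream of the start were at hand in RefSeq (GRCm38.p6) for 4 of the 8 genes, Bcas3, Tbx4, Brip1 and Ints2. Those of Bcas3, Brip1 and Ints2 are shown to set the annotated promoter of Brip1 beside those of the flanking genes. Gene counts do not show whether hair cells use these starts, so the Brip1 sequence is not to be read as the one active in IHCs. The Tbx4 entry starts 10398 bases inside the gene in the same RefSeq build and is not shown. Each sequence is the 250 bases before the start of the RefSeq entry, 5′ to 3′ on the strand of the gene, with CG dinucleotides in capitals. Bcas3 is at chr11:85352914-85353163 (plus strand), Brip1 at chr11:86201194-86201443 (minus strand) and Ints2 at chr11:86257595-86257844 (minus strand).
Bcas3: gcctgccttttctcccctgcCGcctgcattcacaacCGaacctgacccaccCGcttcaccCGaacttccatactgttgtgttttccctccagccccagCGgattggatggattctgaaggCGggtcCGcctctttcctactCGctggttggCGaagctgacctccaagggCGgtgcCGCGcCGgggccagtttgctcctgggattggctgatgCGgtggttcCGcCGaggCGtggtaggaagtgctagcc
Brip1: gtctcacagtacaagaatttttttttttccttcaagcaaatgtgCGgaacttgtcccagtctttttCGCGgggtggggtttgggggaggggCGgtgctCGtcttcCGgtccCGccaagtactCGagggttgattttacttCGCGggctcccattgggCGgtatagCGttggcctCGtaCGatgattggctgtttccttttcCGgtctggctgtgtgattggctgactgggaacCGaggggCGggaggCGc
Ints2: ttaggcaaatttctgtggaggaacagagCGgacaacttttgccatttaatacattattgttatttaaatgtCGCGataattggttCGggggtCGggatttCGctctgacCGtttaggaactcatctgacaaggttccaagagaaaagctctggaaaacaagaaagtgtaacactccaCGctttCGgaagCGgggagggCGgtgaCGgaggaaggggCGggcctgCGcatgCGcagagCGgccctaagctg

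The Brip1 sequence held 18 CG dinucleotides, the Bcas3 sequence 17 and the Ints2 sequence 16, where the median of 27025 promoters of the same length was 6. The ratio of observed to expected CG was 0.957 for Brip1, 0.703 for Bcas3 and 1.06 for Ints2, against a median of 0.378 over all promoters. The T-box half-site AGGTGTGA, searched on both strands, was in none of the 4 sequences, that of Tbx4 included, and in 1.14% of all promoters. The TATA element TATAAA, searched on the strand of the gene, was in none of the 4 sequences and in 8.12% of all promoters.

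IHCs and OHCs were compared across all genes with edgeR's quasi-likelihood test, with fold changes given as OHC over IHC, so that a negative log2 value means a higher level in IHCs. Of 13269 genes that passed the low-count filter, 830 (6.26%) had an adjusted p under 0.05, 506 (3.81%) higher in IHCs and 324 (2.44%) higher in OHCs. Of the 8 genes, 6 passed the filter and 3 were past this threshold, 2610027K06Rik, Tbx2 and Brip1, all higher in IHCs. The first of these passed the filter only through its IHC libraries. Since the same contrast was used to choose the genes, this count is no test of them and nothing is read from it.

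Tbx2 (ENSMUSG00000000093) had 78.1 CPM in the lowest IHC library, a median of 127 CPM and 248 CPM in the highest. In OHC libraries the lowest was 3.84 CPM, the median 4.67 CPM and the highest 12.97 CPM, the last in OHC replicate 3. All 6 IHC libraries thus lay above all 6 OHC libraries, as did those of 315 of the 13269 tested genes (2.37%). IHCs averaged 145 ± 62.8 CPM against 6.04 ± 3.50 CPM for OHCs (SD, n = 6 each). The log2 fold change was −4.58 (SE 0.39), or 23.9-fold higher in IHCs. The summed ridge markers (981 to 2054 CPM against 208 to 782 CPM) and mesenchyme markers (42.3 to 59.3 CPM against 4.85 to 27.4 CPM) also separated the cell types, with 2 of 7 and 0 of 6 tested markers past the threshold. The summed endothelial markers separated them in the other direction (0 to 3.15 CPM in IHCs against 8.69 to 140 CPM in OHCs), with all 4 past the threshold. The part of these marker lists in the Tbx2 and Brip1 differences was not tested. In these pools, fewer cells that express a gene and less RNA per cell cannot be told apart.

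Brip1 (ENSMUSG00000034329) had the highest mean CPM of the 8 genes in IHCs, although Tbx2 (188 CPM) and Bcas3 (153 CPM) were above it in replicate 1. Its lowest IHC library was replicate 1 at 150 CPM, the median was 296 CPM and the highest 408 CPM. OHC libraries ran from 14.8 CPM through a median of 35.9 CPM to 56.3 CPM, all below the 6 IHC libraries. IHCs averaged 299 ± 92.7 CPM against 35.8 ± 15.1 CPM for OHCs (SD, n = 6 each). This gave a log2 fold change of −3.06 (SE 0.32), or 8.36-fold higher in IHCs. On the TPM scale, in which counts are divided by gene length and by a total that includes ribosomal RNA, IHC replicate 1 had 13.2 TPM and fell below the highest OHC library (17.4 TPM). Without the 20 most abundant genes in the total, all 6 IHC libraries were again above, at 58.7 TPM or more against at most 46.2 TPM. Gene counts do not show where in Brip1 a transcript starts.

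The divergent gene 2610027K06Rik (ENSMUSG00000087013) was detected in every IHC library, with 18 to 208 counts, and was nearly absent from OHC libraries. In IHCs it ran from 0.471 CPM through a median of 1.02 CPM to 13.6 CPM, the last in replicate 1. In OHCs 4 of 6 libraries had 0 counts, 1 had 1 count and OHC replicate 4 had 8 counts (0.233 CPM). All IHC libraries lay above all OHC libraries, and the log2 fold change was −6.12 (SE 1.49). It was −4.72 without IHC replicate 1 and −8.50 without OHC replicate 4. Its counts equalled 0.190% to 7.25% of those of Tbx2 in the same IHC library. At a median of 0.814 TPM in IHCs against 59.8 TPM for Tbx2, the level of this divergent partner was far below that of Tbx2.

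Gm11444 (ENSMUSG00000069785), the lncRNA gene downstream of Tbx2, differed widely between IHC libraries. Replicate 2 had 536 counts (13.1 CPM) and replicate 6 had 213 counts (5.80 CPM), whereas the other 4 IHC libraries had 3 to 9 counts. OHC libraries had 0 counts in 4 of 6, 4 in replicate 3 and 12 in replicate 5. These 2 IHC libraries were the only ones above every OHC library, and Gm11444 did not pass the filter. Tbx2 was at 78.1 CPM in IHC replicate 2, its lowest IHC value, and at 119 CPM in replicate 6.

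Tbx4 (ENSMUSG00000000094), a T-box gene known for its role in the hindlimb and lung, lies between Tbx2 and Brip1 and was almost without reads. No IHC library had more than 1 count and no OHC library more than 7. IHC libraries held 2 counts in all and OHC libraries 16. A count of 0 allows up to 3 counts. Over all 12 libraries, 3 counts correspond to 0.0647 CPM (OHC replicate 1) to 0.196 CPM (IHC replicate 1). Neither of these libraries had 0 counts of Tbx4, and the limits of those that did lie between these values. At most 3 counts were found in 11 of the 12 libraries. The limit covers counting error only. A level of Tbx4 above this limit was thus not seen in the IHC libraries with 0 counts. IHC replicates 1 and 5 had 1 count each, to which this limit does not apply.

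Bcas3 (ENSMUSG00000059439), which encodes a scaffold protein of autophagy and cell migration, was expressed in both cell types. IHC libraries ran from 22.2 CPM through a median of 56.9 CPM to 153 CPM, and OHC libraries from 19.1 CPM through 37.3 CPM to 64.7 CPM, so that the groups overlapped. The log2 fold change was −0.70 (SE 0.40) and was −0.29 without IHC replicate 1, whose 153 CPM was the highest value. On the TPM scale the means were 18.8 ± 6.91 in IHCs and 17.2 ± 6.18 in OHCs (SD, n = 6 each), less apart than the spread between libraries.

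Brip1os (ENSMUSG00000085208) was low in both cell types, at 2.88 to 8.82 CPM across IHC libraries and 3.07 to 16.95 CPM across OHC libraries. Its log2 fold change was 0.42 (SE 0.65), opposite in sign to that of Brip1 beside it and smaller than its SE. Brip1os counts were 0.983% to 3.39% of the Brip1 counts in IHC libraries, with a median of 2.05%, but 8.83% to 41.9% in OHC libraries, with a median of 22.3%. The 2 ranges did not overlap, while Brip1os itself overlapped between the cell types. The highest count of Brip1os in a library was 556, against 15246 for Med13 on the opposite strand, with which it shares 912 exonic bases.

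Ints2 (ENSMUSG00000018068), a subunit of the Integrator complex that ends transcription of small nuclear RNAs and paused genes, overlapped between the cell types. It ran from 11.5 CPM through a median of 28.0 CPM to 106 CPM in IHCs, the last in replicate 1, and from 10.2 CPM through 20.2 CPM to 28.7 CPM in OHCs. The log2 fold change was −0.93 (SE 0.50), and −0.24 without IHC replicate 1. This library therefore set most of the distance between the means of 36.3 ± 35.1 CPM and 19.1 ± 7.58 CPM (SD, n = 6 each).

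**Figure D2:**
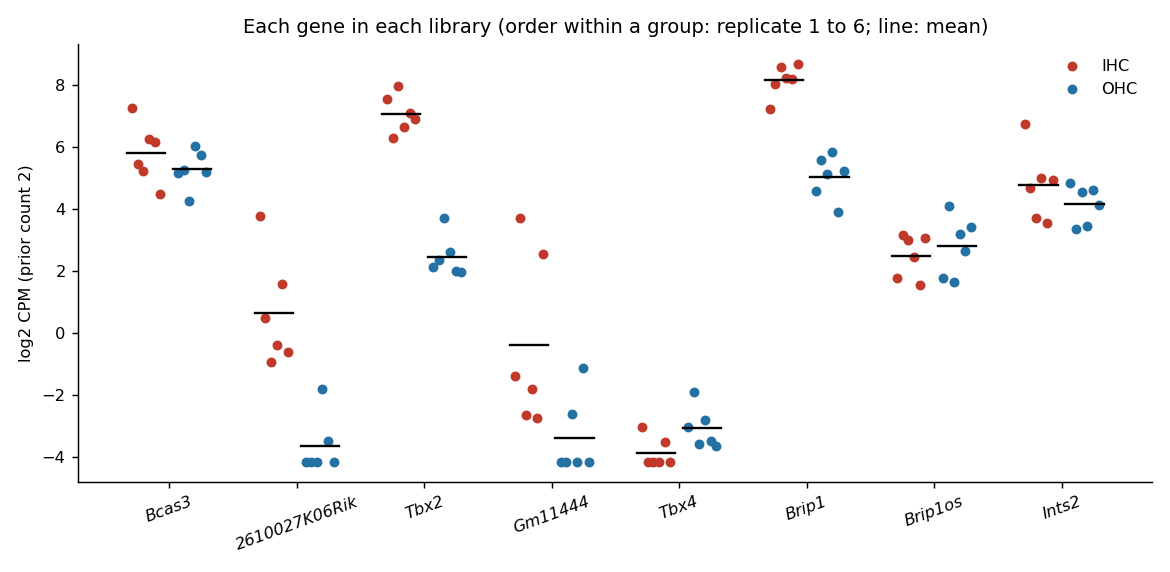
Level of each of the 8 genes in each library, as log2 CPM with a prior count of 2, in genomic order. Points are libraries in order of replicate number, red for IHC and blue for OHC, and black lines are means of 6. For Tbx2, Brip1 and 2610027K06Rik all IHC points lie above all OHC points, and for Bcas3, Brip1os and Ints2 the points overlap.

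Ordered by mean TPM, which takes gene length into account, the IHC levels were Brip1 (81.5 ± 47.8), Tbx2 (68.4 ± 40.3), Bcas3 (18.8 ± 6.91), Gm11444 (8.47 ± 12.7), Ints2 (5.79 ± 2.84), Brip1os (1.66 ± 1.055), 2610027K06Rik (1.46 ± 1.32) and Tbx4 (0.00507 ± 0.00800). Brip1 and Tbx2 overlapped, with Brip1 higher in 4 of 6 IHC libraries. The step from Tbx2 to Bcas3 was free of overlap, as was the step from 2610027K06Rik to Tbx4, and all other neighbours in the order overlapped. The mean of Gm11444 rested on its 2 high libraries, and its median was 0.450 TPM.

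In OHCs the order was Bcas3 (17.2 ± 6.18), Brip1 (11.1 ± 4.88), Ints2 (4.94 ± 2.48), Tbx2 (3.73 ± 2.58), Brip1os (2.47 ± 1.60), Gm11444 (0.206 ± 0.356), Tbx4 (0.0525 ± 0.0504) and 2610027K06Rik (0.0416 ± 0.0909), again as mean TPM ± SD of 6 libraries. The step from Brip1os to Gm11444 was the only one without overlap. In IHCs Tbx2 was above 94.2% of the tested genes and Brip1 above 95.4% by mean TPM, and in OHCs they were above 30.6% and 58.3%. The ratio of Brip1 to Tbx2 in TPM was 0.411 to 1.77 in IHC libraries and 1.38 to 4.96 in OHC libraries.

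Whether the genes varied together from library to library within a cell type was a question that the choice of the genes had not used. Pearson's r and Spearman's rho of log2 CPM were computed over the 6 libraries of each cell type for the 31 pairs of genes with a mean of at least 10 counts, 21 in IHCs and 10 in OHCs, with exact permutation tests over all 720 pairings. No pair had a Benjamini-Hochberg adjusted p under 0.05 (the lowest was 0.309 for r in an exact permutation test and 0.517 for rho), and 3 pairs had an unadjusted p under 0.05 for r, where 31 pairs were tested.

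Tbx2 and Brip1 did not vary together in a detectable way. In IHCs r was −0.05 (exact permutation p = 0.914, adjusted 0.996) and rho was 0.09 (exact permutation p = 0.919, adjusted 1.0). Without the 2 libraries farthest from the median of Tbx2, replicates 2 and 3, r was −0.82, while it was 0.66 without replicate 1 and −0.54 without replicate 3, so that its sign rested on which libraries were kept. In OHCs r was 0.32 (exact permutation p = 0.493, adjusted 0.764) and rho was 0.37 (exact permutation p = 0.497, adjusted 0.856), and r was 0.55 without replicates 3 and 4 and 0.73 without replicate 3. Left out singly, the libraries gave −0.54 to 0.66 in IHCs and 0.10 to 0.73 in OHCs.

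Tbx2 and its divergent partner 2610027K06Rik had an r of 0.17 in IHCs (exact permutation p = 0.756, adjusted 0.906) and a rho of −0.09 (exact permutation p = 0.919, adjusted 1.0), and r was −0.85 without replicates 1 and 5. The largest correlation in size was between 2610027K06Rik and Brip1 in IHCs, with an r of −0.92 (exact permutation p = 0.0139, adjusted 0.309) and a rho of −0.89 (exact permutation p = 0.0333, adjusted 0.517). It was −0.88 without replicates 1 and 5. IHC replicate 1 had the highest level of the former gene and the lowest of Brip1, and its ribosomal RNA share was the highest. The part of that share in the correlation was not tested. The smallest p that 720 pairings can give is 0.00139, or 0.0431 after adjustment for a single pair among 31.

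**Figure D3:**
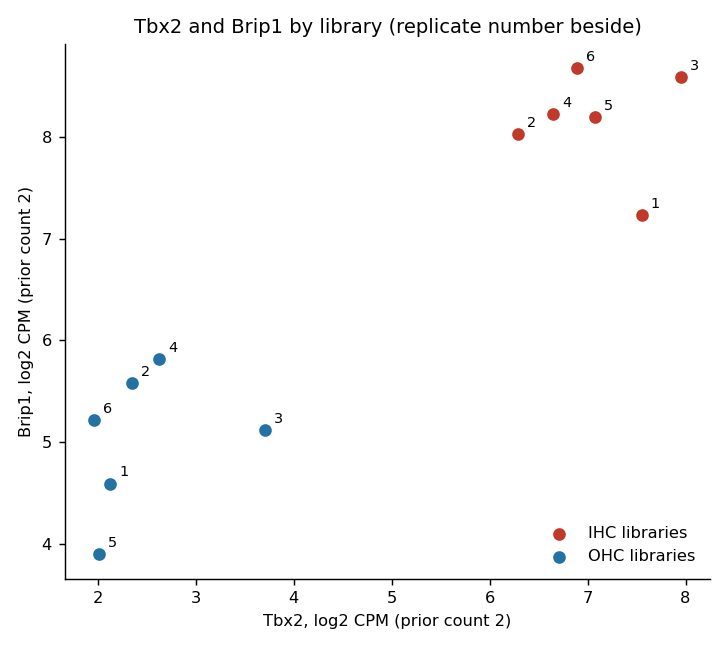
Tbx2 (x axis) against Brip1 (y axis) in log2 CPM with a prior count of 2, 1 point per library with its replicate number, red for IHC and blue for OHC. The libraries form 2 clusters by cell type, and within neither cluster do the 2 genes rise together beyond what the exact permutation tests allow (r −0.05 in IHCs and 0.32 in OHCs).

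The genes most like Tbx2 in pattern over all 12 libraries, by Pearson's r of log2 CPM, were Gm43584 (0.98), Heg1 (0.97), Fry (0.97), Afap1 (0.97) and Chst2 (0.97). Those most like Brip1 were Cubn (0.98), Fgf10 (0.96), Heg1 (0.96), Plet1 (0.96) and Chrna1 (0.96). Brip1 ranked 40 among the genes most like Tbx2, and Tbx2 ranked 19 among those most like Brip1, with an r of 0.93 over 12 libraries. The libraries fall into 2 clusters, so these values describe the distance between the cell types and were given no test. Among them, Fgf10 encodes a fibroblast growth factor, Chrna1 a subunit of the muscle acetylcholine receptor, and Cubn an endocytic receptor. None of these 9 genes lies on chromosome 11.

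Other genes of the region were taken by position, with the 8 genes of the neighbourhood left out. Those 8 were chosen with their levels known, so the remainder is not independent of the levels. Of the 6 tested genes left out, 3 were past the threshold and 5 had a log2 fold change below 0. The counts and medians of the remainder are therefore given as a description. Inside the stretch or within 1 Mb of it the files held 58 other genes, 7 of them inside and 15 of them without a count in any library, and 26 passed the filter. By edgeR's quasi-likelihood test, 0 of the 26 had an adjusted p under 0.05, against 6.26% of all tested genes, 2 had an unadjusted p under 0.05, and DESeq2 called 2 of 29. The median log2 fold change of the 26 was 0.40, against −0.04 over all tested genes, and 19 of the 26 were above 0. The values ran from −0.74 to 3.84. Within 0.5 Mb 16 genes were tested with a median of 0.29, and within 2 Mb 45 were tested with a median of 0.16, again with none called.

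On the Bcas3 side the nearest tested gene was Ppm1d, a phosphatase of the DNA damage response, which ends 4.33 kb before Bcas3. IHCs averaged 38.8 ± 15.01 CPM against 25.5 ± 10.985 CPM for OHCs (SD, n = 6 each), for a log2 fold change of −0.61 (SE 0.38, edgeR adjusted p = 0.376). On the Ints2 side the nearest was Med13, a subunit of the kinase module of Mediator, whose span shares 37411 bases with the end of Brip1os. Med13 averaged 309 ± 90.3 CPM in IHCs against 345 ± 44.0 CPM for OHCs, for a log2 fold change of 0.16 (SE 0.21, edgeR adjusted p = 0.706). Neither gene was past the threshold.

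The 2 genes with an unadjusted p under 0.05, named here after their values were seen, were both on the Ints2 side and higher in OHCs. Ypel2 averaged 76.1 ± 12.5 CPM in IHCs against 126 ± 26.4 CPM for OHCs, for a log2 fold change of 0.73 (SE 0.22, edgeR adjusted p = 0.0561). Tubd1, which encodes delta-tubulin, averaged 0.333 ± 0.752 CPM against 4.86 ± 4.43 CPM, for a log2 fold change of 3.84 (SE 1.45, edgeR adjusted p = 0.127). For each, 5 of 6 OHC libraries lay above every IHC library. Of the 7 genes inside the stretch none was protein coding and none passed the filter, and the highest count among them was 215, for Mir5110 within Bcas3 in an OHC library.

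**Figure D4:**
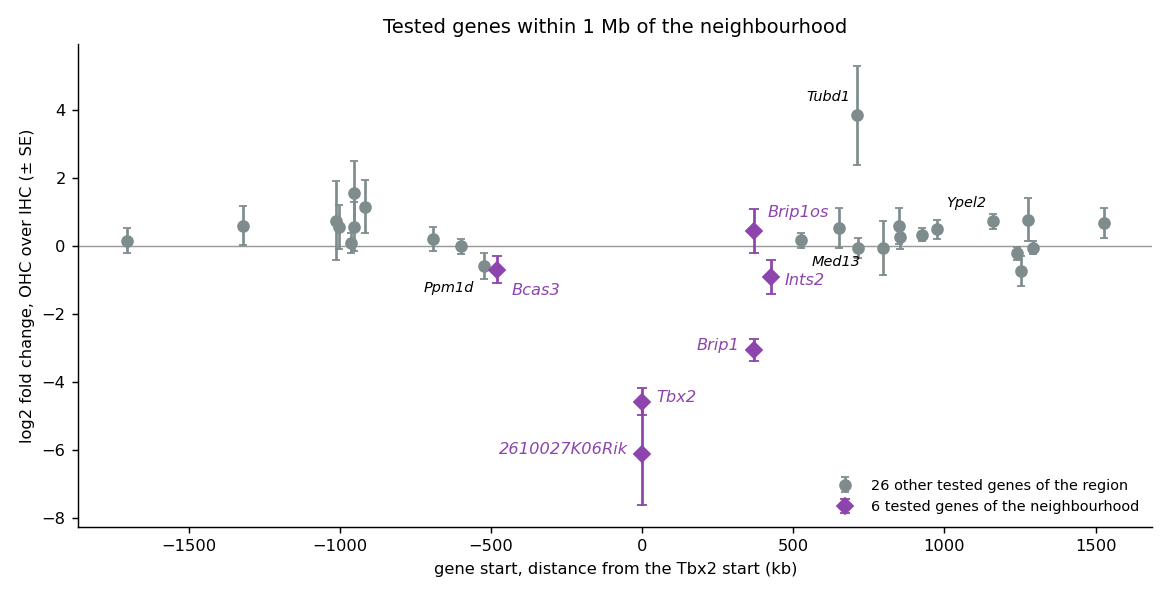
Log2 fold change (OHC over IHC, ± SE) of the tested genes against the distance of their start from that of Tbx2 in kb. Purple diamonds are the 6 tested genes of the neighbourhood, which were chosen with their levels known, and grey circles the 26 other tested genes within 1 Mb. The grey genes lie between −0.74 and 3.84 with none past the threshold, while Tbx2, 2610027K06Rik and Brip1 lie at −4.58, −6.12 and −3.06.

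The other members of the gene families were compared in the same fit. T-box factors share a DNA-binding domain and pattern limbs, heart, brain and ear. Of 15 T-box genes beside Tbx2 and Tbx4, 2 had no count and only Mga passed the filter. Mga, a large repressor that pairs with Max and carries a T-box, averaged 34.7 TPM in IHCs against 49.3 TPM for OHCs, for a log2 fold change of 0.19 (SE 0.21, edgeR adjusted p = 0.636), 0 called by edgeR or DESeq2 and 0 with an unadjusted p under 0.05. No other T-box gene of the list reached more than 361 counts in a library. Mga thus had the highest level of the listed genes in both cell types, with Tbx2 at 68.4 TPM in IHCs and 3.73 TPM in OHCs beside it.

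Integrator cleaves nascent transcripts of small nuclear RNA genes and of paused protein-coding genes. All 14 other subunits were tested, and 2 of them (14.3%) were past the threshold by edgeR, both higher in IHCs, against 6.26% of all genes. Ints5 averaged 58.4 ± 69.8 CPM in IHCs against 13.02 ± 5.15 CPM for OHCs, for a log2 fold change of −2.17 (SE 0.62, edgeR adjusted p = 0.0405). Ints15 averaged 59.0 ± 40.8 CPM against 19.8 ± 7.67 CPM, for a log2 fold change of −1.57 (SE 0.46, edgeR adjusted p = 0.0454). For each, 4 of 6 IHC libraries lay above every OHC library.

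Both calls lay near the threshold, and neither held in every fit that left out 1 library. The log2 fold changes in these fits were −2.40 to −1.31 for Ints5 and −1.75 to −1.23 for Ints15. Ints5 remained past the threshold in 4 of 12 fits that left out 1 library and lost the call without IHC replicate 1 or 5 or any OHC library, with an adjusted p of up to 0.183 in edgeR. Ints15 remained in 3 of 12 and lost the call without IHC replicate 1, 3 or 5 or any OHC library, with an adjusted p of up to 0.130. The median log2 fold change of the 14 subunits was −0.24, against −0.04 over all genes, with 10 below 0. By TPM the highest of them was Ints5 in IHCs (39.5) and Ints14 in OHCs (29.4), and Ints2 stood at 5.79 and 4.94.

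BRIP1 belongs to a family of helicases that hold an iron-sulphur cluster, together with ERCC2 of the repair and transcription factor TFIIH, RTEL1, which keeps telomeres intact, and DDX11, which acts in sister chromatid cohesion. None of the 3 related genes was past the threshold in edgeR, 1 had an unadjusted p under 0.05, and DESeq2 called 1, Ercc2. Ercc2 averaged 18.6 ± 12.65 CPM in IHCs against 5.38 ± 5.41 CPM for OHCs, with 5 of 6 IHC libraries above every OHC library and a log2 fold change of −1.79 (SE 0.71, edgeR adjusted p = 0.142). Rtel1 was at −0.20 (SE 0.71, edgeR adjusted p = 0.901) and Ddx11 at −0.23 (SE 0.97, edgeR adjusted p = 0.917). By TPM Ercc2 was the highest of the 3 in IHCs (10.98) and Rtel1 in OHCs (6.76), where Brip1 had 81.5 and 11.1.

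**Figure D5:**
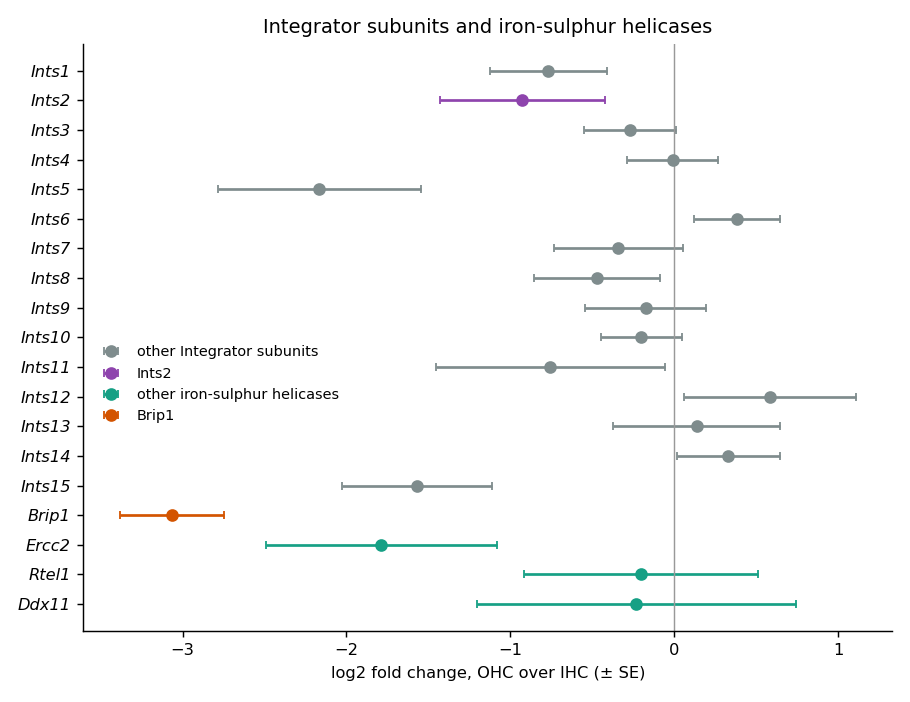
Log2 fold change (OHC over IHC, ± SE) of the 15 Integrator subunits and 4 iron-sulphur helicases, with Ints2 in purple and Brip1 in orange. Of the other genes only Ints5 (−2.17) and Ints15 (−1.57) were past the threshold, and Brip1 lies at −3.06.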

How the data were processed

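RNA-seq libraries of 6 IHC and 6 OHC pools were analysed. Per the labels, libraries were made after depletion of ribosomal RNA from randomly primed, amplified cDNA and sequenced as 100 bp read pairs. The files deposited for each library hold 55416 genes with unnormalized read counts and 5 summary lines. The summary lines (24.2% to 46.1% of all lines' sum) were left out. By the study's methods, reads were aligned to GRCm39 with STAR in 2 passes and counted with HTSeq (intersection-nonempty mode, GENCODE vM27). The submitters' processing notes also name Trimmomatic, and versions are not given in the sources used here. Without molecular identifiers the counts hold amplified copies, and precision was read from the spread between libraries. Nothing says that pools of 1 cell type came from separate litters, so p-values measure the spread between these pools.

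Counts were tested with edgeR 4.0.16 in R 4.3.3 (filterByExpr by cell type with minimum count 10 and minimum total count 15, TMM, estimateDisp, glmQLFit, glmQLFTest) and adjusted by the Benjamini-Hochberg method over all 13269 genes tested, with a threshold of 0.05. SE was computed as the log2 fold change divided by the square root of F. CPM is scaled to the TMM-normalized library size, and log2 CPM used a prior count of 2. TPM was computed with gene lengths taken as merged exons of GENCODE vM39, which held 98.8% of the IDs and also gave the positions. DESeq2 1.42.0, other size factors and filters, and the omission of each library were tried as alternatives. Other steps used Python 3.11.15, numpy 2.4.6, pandas 2.3.3, scipy 1.17.1 and matplotlib 3.10.9.

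The 8 genes and all gene lists were chosen with earlier results of these data known. Named in the text are all 8 genes, every other gene of the region or of the families past the threshold, the nearest tested gene on each side, the highest family member by TPM in each cell type, all 3 related helicases, and the 5 genes most like Tbx2 or Brip1. Replicate numbers were shared by both cell types, and same-numbered libraries were not alike (correlations of deviations from the group means −0.031 to 0.018). Whether same-numbered pools came from the same mice is not given in the sources used here, and the main fit did not pair them.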

Additional observations from a re-analysis of the deposited data

Results flagged for a closer look

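Groups of 6 libraries were drawn from the 8 genes and other named family members. The 25 groups did not cover every named gene in both cell types. Of the 25, 8 held a library whose gap to its nearest neighbour took up more of the group's range than Dixon's test allows. The test's rate of about 1 in 20 holds for normally distributed values. The OHC groups of 2610027K06Rik, Gm11444 and Tbx4 held mostly counts near 0, so 8 of 25 is not read as an excess. None of these gaps was weighed for a cause. In IHC replicate 1, 2610027K06Rik was at 13.6 CPM (next 2.94) and Ints2 at 106 CPM (next 31.5). In OHC replicate 4, 2610027K06Rik was at 0.233 CPM (next 0.0334) and Rtel1 at 42.7 CPM (next 13.3). Tbx2 was at 12.97 CPM in OHC replicate 3 (next 6.11). Gm11444 was at 0.400 CPM in OHC replicate 5 (next 0.109), and Tbx4 at 0.213 CPM in OHC replicate 2 (next 0.0872). Ints5 was at 192 CPM in IHC replicate 5 (next 72.6).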

How the results depend on the processing

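The members' log2 fold changes describe the contrast that chose them, so their ranges are given with nothing read from them. Their range without 1 library was −4.98 to −4.37 for Tbx2, −3.24 to −2.91 for Brip1, −8.50 to −4.72 for 2610027K06Rik, −0.91 to −0.29 for Bcas3, −1.14 to −0.24 for Ints2 and 0.07 to 0.59 for Brip1os. Gm11444 had an adjusted p only in DESeq2, where it was past the threshold, and without the filter, where it was not. Its log2 fold change in these fits was −5.27 to −5.26. Tbx4 had an adjusted p only without the filter.

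DESeq2 called 1339 genes higher in IHCs and 1590 higher in OHCs, 2 in the region (Ypel2 and Tubd1) and 1 helicase (Ercc2). Without the filter 893 and 918 genes were called, and 1 of the region, Mir5110. Upper-quartile factors gave 1 call in the region and 1 in Integrator, and a minimum of 10 counts in every library gave 1 in the region, each time Ypel2 for the region. Leaving out 1 library gave 369 to 551 genes higher in IHCs, 225 to 402 higher in OHCs, 0 to 1 calls in the region (Ypel2 without IHC replicate 1 or OHC replicate 4, Tubd1 without IHC replicate 4) and 0 to 2 in Integrator. The cause of these changes was not tested.

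Same-numbered libraries were not alike, since 0 of 6 correlations of same-numbered libraries were over 0.1 and 0 of 6 IHC libraries correlated best with their own number. These correlations cannot decide whether same-numbered pools came from the same mice. With the replicate number as a block, 512 genes were higher in IHCs and 391 in OHCs, and 1 Integrator subunit, Ints15, was past the threshold. Low counts limit what can be said of Tbx4, Gm11444 and 2610027K06Rik in OHCs.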
